A study of Mus musculus with 12 samples.

Results

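The genes described here are 10 oxidant-responsive genes of mouse embryonic fibroblasts (MEFs) that were the annotated genes nearest to a Stat3 peak in LIF-treated cells: Adamtsl3, Thbs2, Col12a1, Dkk3, Angptl4, Foxj1, Bnc2, Bach2, Unc5c and Spaca6. They are 10 of the 197 genes of the study's oxidant-responsive table that were found in the annotation, and 10 of 55413 annotated genes in all. The table was built from RNA-seq and the genes were then chosen by their LIF peaks, so that the presence of a LIF peak near each of them is the rule and not a result. The table lists 8 of the 10 as lower after peroxide in cells with wild-type Stat3 and Angptl4 and Foxj1 as higher. Over the table, 85 of the 197 genes (43.1%) are listed as lower, and the 10 were not tested against this share. An 11th table gene nearest to a LIF peak, 1810019D21Rik, is listed as higher and is not among the 10. Expression itself was not analysed here.

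The positions of Stat3 on chromatin were mapped by ChIP-seq: an antibody against Stat3 pulls down the DNA fragments fixed to it, and these are sequenced. All cells were immortalised MEFs from Stat3 fl/fl embryos in which Stat3 had been deleted with a retroviral Cre-Thy1.1 vector and then reintroduced together with GFP by an MSCV vector: -/-WT MEFs express WT-Stat3, and -/-C3S MEFs express Stat3-C3S, whose DNA binding domain carries cysteine substitutions that make it insensitive to oxidation. Both lines are polyclonal, were starved overnight in medium with little serum, and express Stat3 from the vector rather than from its own gene. Each of 5 conditions had 2 ChIP replicates: -/-WT basal (unstimulated), -/-WT with LIF (10 ng/ml for 45 min), -/-WT with hydrogen peroxide (1 h), -/-C3S basal and -/-C3S with hydrogen peroxide (1 h). The labels give the peroxide concentration as 100 mM, whereas the study's text gives a micromolar unit. The labels also list input DNA and IgG libraries, which were not used here. The replicates of a condition were pooled into 1 deposited list of peak summits, so that the values carry no replicate error and conditions could not be tested against each other. The lists held 1088 summits for -/-WT LIF, 450 for -/-WT peroxide, 230 for -/-WT basal, 223 for -/-C3S peroxide and 145 for -/-C3S basal. Read depth is not in the lists, and the study describes its LIF libraries as the more deeply sequenced. The part that depth plays in the length of a list was not tested. A list of summits holds no expression values, so the identity of the cells could not be checked against marker genes.

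Stat3 is a latent transcription factor that is phosphorylated on a tyrosine by Jak kinases when cytokines of the IL-6 family, such as LIF, bind their receptors. Phosphorylated Stat3 dimers enter the nucleus and bind a palindromic sequence, the SIE, for which TTCCNGGAA was searched here. In fibroblasts the textbook LIF targets include the feedback inhibitor Socs3, the AP-1 subunit Junb and Stat3 itself. AP-1 factors bind TGANTCA, and Hif-1, the hypoxia-inducible factor, binds the hypoxia response element (HRE), searched as ACGTG or GCGTG on either strand.

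The sequences under the summits differ in the motifs they carry. A window of 161 bp, 80 bp on each side of the summit, is printed for 6 genes from the plus strand of mm10 (GRCm38), with SIEs of up to 1 mismatch and AP-1 sites in capitals. Adamtsl3 and Foxj1 are shown because a consensus SIE lies under a summit just upstream of the gene.
Adamtsl3, chr7:82335323-82335483: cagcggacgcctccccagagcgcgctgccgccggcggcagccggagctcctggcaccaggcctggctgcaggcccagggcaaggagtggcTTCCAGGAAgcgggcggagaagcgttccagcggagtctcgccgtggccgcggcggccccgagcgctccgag
Foxj1, chr11:116335862-116336022: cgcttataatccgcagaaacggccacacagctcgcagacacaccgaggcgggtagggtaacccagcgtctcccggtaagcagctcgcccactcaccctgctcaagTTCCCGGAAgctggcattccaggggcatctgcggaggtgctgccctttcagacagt
Thbs2, Bach2 and Col12a1 are shown because they carry an SIE with 1 mismatch, and Col12a1 an AP-1 site beside it.
Thbs2, chr17:14694448-14694608: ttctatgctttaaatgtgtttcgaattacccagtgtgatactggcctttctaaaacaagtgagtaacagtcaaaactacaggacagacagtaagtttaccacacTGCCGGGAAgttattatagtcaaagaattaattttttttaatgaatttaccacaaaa
Bach2, chr4:32482883-32483043: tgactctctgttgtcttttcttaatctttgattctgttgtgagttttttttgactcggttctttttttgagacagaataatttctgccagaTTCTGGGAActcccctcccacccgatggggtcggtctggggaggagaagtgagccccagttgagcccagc
Col12a1, chr9:79631287-79631447: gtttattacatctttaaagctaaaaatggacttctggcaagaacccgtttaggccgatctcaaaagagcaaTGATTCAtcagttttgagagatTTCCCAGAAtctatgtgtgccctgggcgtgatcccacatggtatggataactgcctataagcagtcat
The summit upstream of Angptl4 is shown as a window with an AP-1 site and no SIE.
Angptl4, chr17:33783481-33783641: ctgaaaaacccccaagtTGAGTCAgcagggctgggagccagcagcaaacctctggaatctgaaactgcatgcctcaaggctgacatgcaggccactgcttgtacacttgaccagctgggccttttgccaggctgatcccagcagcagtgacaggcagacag
For Spaca6 only the 29 bases around the consensus SIE in the gene's body are given, since the window also covers an annotated untranslated stretch.
Spaca6, chr17:17838350-17838378: ccaggtcacgTTCCGGGAAgtgatgaatc

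In all, 14 summits of the -/-WT LIF list lay within 50 kb of a start site of the 10 genes: 3 near Spaca6, 2 near Angptl4, 2 near Col12a1 and 1 near each of the other 7 genes. By the rule each gene had at least 1, against 5.54% of all annotated genes, and nothing is read from that contrast. The nearest summits were 0.103 to 20.0 kb from a start site, with a median of 1.14 kb. Over the whole list the distance to the nearest start site of any gene had a median of 5.86 kb and quartiles of 0.675 and 21.3 kb. Nearness was part of the rule, so these distances are a description only. Of the 10 nearest summits, 4 lay upstream of the gene, 4 in an intron, 1 in a coding exon and 1 in an exon of a non-coding transcript.

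**Figure D1:**
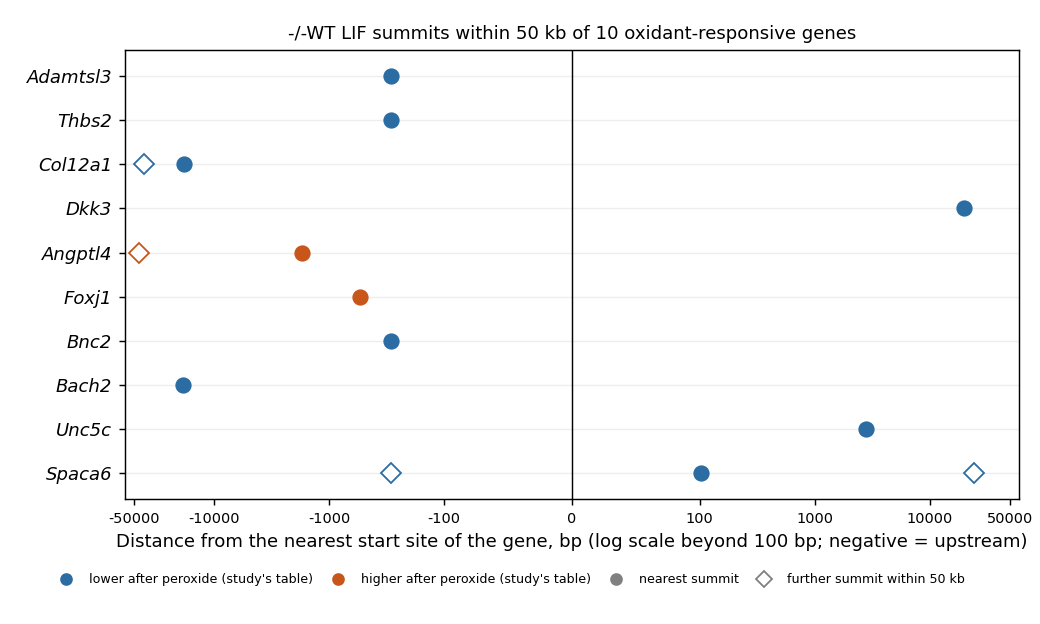
Distance in bp of each -/-WT LIF summit within 50 kb from the nearest annotated start site of the gene, on a log scale beyond 100 bp, with upstream positions to the left. Filled circles are the nearest summits and open diamonds the 4 further ones. Colour gives the direction after peroxide in the study's table. The nearest summits of Adamtsl3, Thbs2 and Bnc2 lie at almost the same distance upstream of a start site, from 288 to 293 bp, and those of Col12a1, Bach2 and Dkk3 lie 18.4 to 20.0 kb away.

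Of the secreted and extracellular matrix proteins, Adamtsl3 had the highest-scoring summit of the 10 genes. Adamtsl3 (ENSMUSG00000070469, chr7:82335694-82614450, plus strand) encodes an ADAMTS-like matrix glycoprotein without a protease domain. The summit, at position 82335403, was 291 bp upstream of the gene, with a score of 15.2 and rank 289 of 1088. The SIE in it, TTCCAGGAA, was centred 14 bp from the summit. The window had a GC content of 76.4%, the highest of the 10.

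Thbs2 (ENSMUSG00000023885, chr17:14665500-14694235, minus strand) encodes thrombospondin 2, a matricellular protein that inhibits the growth of blood vessels. The summit, at position 14694528, was 293 bp upstream of the gene, where promoters lie, but its score of 1.47 gave it rank 1087 of 1088. The closest SIE match was TGCCGGGAA, with 1 mismatch, centred 28 bp from the summit. The window had the lowest GC content of the 10 at 32.9%, and 21.7% of its bases were repeat-masked. Adamtsl3 and Thbs2 thus had summits 2 bp apart in distance from their start sites, with the highest and the lowest score of the 10.

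Col12a1 (ENSMUSG00000032332, chr9:79598991-79718831, minus strand) encodes the alpha chain of type XII collagen, which sits on the surface of collagen fibrils. Its nearest summit, at position 79631367 in intron 47 of 65 of transcript Col12a1-201, lay 18.397 kb before the start of the shorter transcript Col12a1-204 and ranked 636 with a score of 8.21. It was the only one of the 10 nearest windows with an SIE match, an AP-1 site and an HRE together: TTCCCAGAA, with 1 mismatch, lay 17 bp from the summit, TGATTCA 6 bp on the other side and the HRE 40 bp away. A further summit at position 79759794 lay 40.963 kb upstream of Col12a1 and 0.084 kb from a start site of Cox7a2, which encodes a subunit of cytochrome c oxidase. It ranked 865 and carried a consensus SIE, shown here with its flanks.
Col12a1 further summit, chr9:79759763-79759791: agagggctcgTTCCGGGAAgaggaggggc

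Dkk3 (ENSMUSG00000030772, chr7:112116017-112159057, minus strand) encodes a secreted glycoprotein of the Dickkopf family, best known for antagonists of Wnt signalling. In intron 4 of 7, the summit at position 112139102 lay 19.955 kb downstream of the start site and ranked 1029 with a score of 3.42. None of the 3 motifs was found within 80 bp, and no SIE even when 2 mismatches within an arm of the palindrome were allowed. The nearest consensus SIE was 169 bp from the summit.

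Angptl4 (ENSMUSG00000002289, chr17:33773750-33781830, minus strand) encodes a secreted inhibitor of lipoprotein lipase and is a textbook target of Hif-1. It is 1 of the 2 genes listed as higher after peroxide. Its nearest summit, at position 33783561, was 1.731 kb upstream, with a score of 6.80 and rank 740. An AP-1 site, TGAGTCA, was centred 60 bp from the summit, no SIE was found with 1 mismatch or with 2 in an arm, and there was no HRE. The nearest consensus SIE was 4.04 kb from the summit. A further summit at position 33827021, ranked 645 with a score of 7.81, was 45.191 kb upstream of Angptl4 but 1.4 kb from a start site of Ndufa7, which encodes a subunit of respiratory complex I, and held an SIE match with 1 mismatch, TTACTGGAA, 1 bp from the summit.

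Among the transcription regulators, Foxj1 (ENSMUSG00000034227, chr11:116330704-116335399, minus strand) encodes the forkhead factor that drives the formation of motile cilia. It is the other gene listed as higher after peroxide and the shortest of the 10, with 1 annotated start site. A summit at position 116335942 was 543 bp upstream, ranked 450 with a score of 11.0, and carried a consensus SIE, TTCCCGGAA, centred 29 bp from the summit. The next -/-WT LIF summit was 136.4 kb away.

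Bnc2 (ENSMUSG00000028487, chr4:84275095-84675275, minus strand) encodes basonuclin 2, a zinc finger protein. Its summit at position 84523981 ranked 387 with a score of 12.2 and was 288 bp upstream of the start of Bnc2-208, a processed transcript inside the gene. In the main transcript, Bnc2-201, the same position is in intron 3 of 7. The start of the nearest transcript of the GENCODE basic set, a subset of the annotated transcripts, was 151.053 kb away. The window held no SIE with up to 1 mismatch, AP-1 site or HRE.

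Bach2 (ENSMUSG00000040270, chr4:32238804-32586108, plus strand) encodes a BTB and leucine zipper repressor, best known from lymphocytes, that binds Maf recognition elements. Its summit at position 32482963 was in intron 3 of 6, 18.542 kb upstream of the internal transcript Bach2-204 and 65.528 kb from a basic start site. It ranked 1085 of 1088, with a score of 1.99. The closest SIE match was TTCTGGGAA, with 1 mismatch, 15 bp from the summit, and 15.5% of the window was repeat-masked. Bach2 and Thbs2 therefore rest on 2 of the 5 lowest-scoring summits of the list.

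Unc5c (ENSMUSG00000059921, chr3:141465216-141834924, plus strand) encodes a netrin receptor that mediates repulsion of growing axons. Its summit at position 141468477 was 2.806 kb downstream of the start of Unc5c-205, ranked 550 with a score of 9.44. It lay in the exon of Unc5c-208, a retained-intron transcript, and in intron 1 of 15 of Unc5c-202. No SIE with up to 1 mismatch, AP-1 site or HRE was found in the window. With 2 mismatches in an arm allowed, TGCTGGGAA was found 62 bp from the summit.

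Spaca6 (ENSMUSG00000080316, chr17:17827158-17843009, plus strand) encodes a membrane protein of sperm that is needed for fusion with the egg, and it had the most summits. The nearest, at position 17838384, ranked 377 with a score of 12.3. It was 103 bp downstream of the start of the retained-intron transcript Spaca6-214 and 7.38 kb from a basic start site, in an exon that is coding in Spaca6-209 and Spaca6-216 and untranslated in Spaca6-205, Spaca6-207 and Spaca6-215. Its consensus SIE, TTCCGGGAA, was centred 20 bp from the summit and shared its first base with an HRE. The next summit, 396 bp away in an intron at position 17837988, ranked 991 with a score of 3.88 and held an SIE match with 1 mismatch (TGCCCGGAA, 46 bp from the summit), AP-1 sites at 66 and 3 bp and an HRE at 24 bp. The last, at position 17862692, was 24.120 kb from a Spaca6 start site and 7.487 kb from Has1, which encodes a hyaluronan synthase. It ranked 428 with a score of 11.3 and held 2 consensus SIEs, 24 bp and 53 bp on opposite sides of the summit.

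The scores of the nearest summits spread over most of the list, with 0.092 to 73.5% of the list ranked below them. They had a median of 8.82 (1.47 to 15.2), against a median of 9.44 and quartiles of 5.97 and 15.7 over the list, and the median rank was 593 against 544.5. Of the 10, 4 were in the higher-scoring 50% of the list (12.2 to 73.8%), 0 in the highest-scoring 25%, which allows a share of up to 30%, and 3 in the lowest-scoring 25% (Dkk3, Bach2 and Thbs2, 6.67 to 65.2%). These counts are near the shares that define the classes. The table gene 1810019D21Rik, also nearest to a LIF peak but not among the 10, ranked 195 with a score of 18.3. This score is above the upper quartile of 15.7, so its summit is in the highest-scoring 25% of the list. The count of 0 in that class therefore holds for the 10 genes only and depends on the absence of 1810019D21Rik. Many scores are tied, as 792 of the 1088 summits share theirs with another, and tied summits were ranked by position in the genome. Unc5c is in a tie over ranks 539 to 557, which spans the limit of the higher-scoring 50% at rank 544, so that 5 genes are in it if the ties at the limit are included. The ties of Angptl4 cover ranks 727 to 761, and those of Bnc2 ranks 380 to 396. Genes known as LIF targets ranked far above them in the same list: Stat3 had rank 1 with a score of 144, Osmr, a receptor subunit for oncostatin M, rank 2 with 136, Junb rank 5 with 88.5, Csf1, a macrophage growth factor, rank 7 with 62.2, and Socs3 rank 47 with 34.8. The unit of the score is not given in the sources used here, so the values only order the summits within a list.

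**Figure D2:**
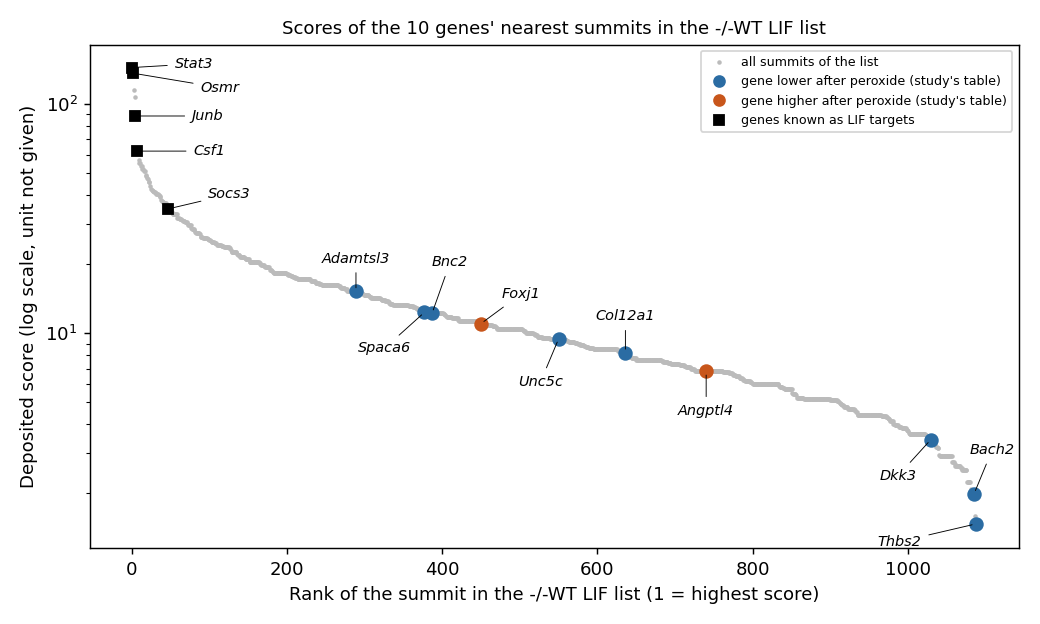
Deposited score (log scale, unit not given) of all 1088 summits of the -/-WT LIF list against rank, with the nearest summits of the 10 genes as circles coloured by the direction in the study's table and 5 genes known as LIF targets as black squares. The 10 genes span ranks 289 to 1087, and the 5 known targets ranks 1 to 47.

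In the other 4 lists no summit lay within 50 kb of any of the 10 genes, a count of 0 of 1048 summits. For the -/-WT peroxide list, 0 of 10 genes had a summit, which allows a share of up to 30%, and the share of all annotated genes was 1.37%. For the -/-WT basal list the count was again 0 of 10, against 0.675% of all genes. It was 0 of 10 against 0.449% for -/-C3S basal and 0 of 10 against 0.653% for -/-C3S peroxide. With 10 genes and backgrounds this low, a count of 0 is near the background and is not a result about these genes. Of the 3068 annotated genes with a -/-WT LIF summit within 50 kb, 62 (2.02%) also had a summit of another list. Of the 5 genes known as LIF targets, Stat3 had a summit 0.218 kb from a start site in the -/-WT basal list and 0.246 kb away in the -/-WT peroxide list, and Junb and Osmr had -/-WT basal summits within 0.034 and 0.063 kb. Junb and Osmr had no summit within 50 kb in the -/-WT peroxide list, Socs3 and Csf1 had none in any of the 4 lists, and none of the 5 genes had one in either -/-C3S list.

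The nearest summits of those 4 lists were 0.564 to 42.6 Mb from the 10 genes, with a median of 4.0 Mb over the 40 pairs of gene and list. The -/-WT peroxide list, which is the longest of the 4, had the shortest median distance at 1.73 Mb, and the medians of the others were 4.56 Mb for -/-C3S peroxide, 4.62 Mb for -/-WT basal and 5.04 Mb for -/-C3S basal. The closest were -/-WT peroxide summits 563.6 kb from Bach2, 571.1 kb from Adamtsl3 and 611.8 kb from Spaca6. A -/-C3S peroxide summit was also 611.8 kb from Spaca6.

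**Figure D3:**
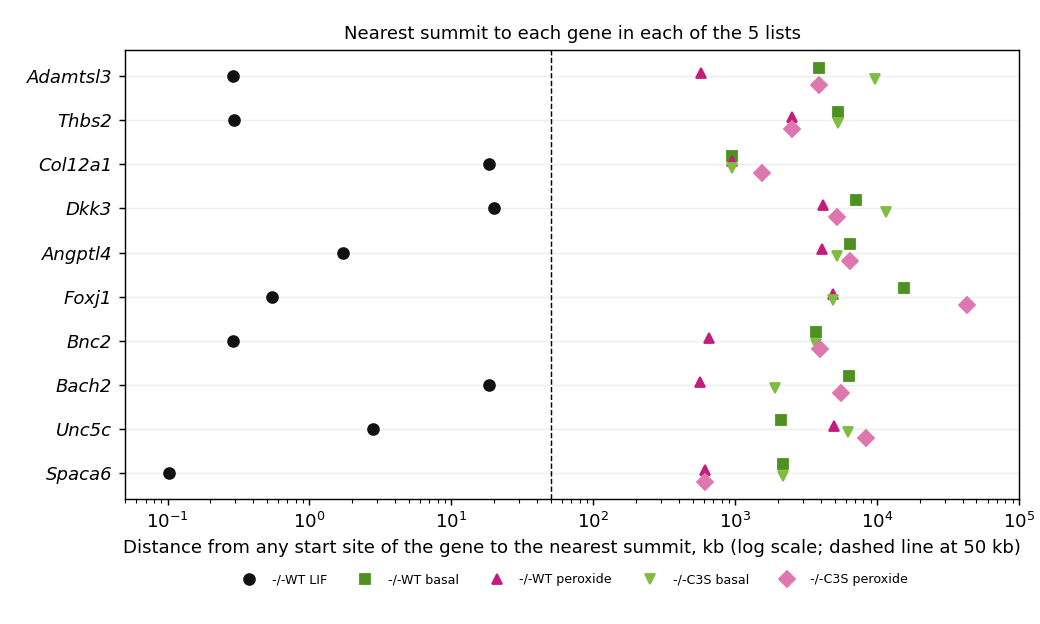
Distance in kb (log scale) from any start site of each gene to the nearest summit in each of the 5 lists, with a dashed line at 50 kb. Black circles are the -/-WT LIF list and the other symbols the basal and peroxide lists of -/-WT and -/-C3S MEFs. All 10 LIF summits lie left of the line and all 40 other points right of it, from 563.6 kb upwards.

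The motifs under the nearest summits were counted against the whole -/-WT LIF list, since the rule did not use sequence. A consensus SIE lay within 80 bp of the summit for 3 of the 10 genes, Adamtsl3, Foxj1 and Spaca6, which is 30% with a Clopper-Pearson interval of 6.67 to 65.2%, against 15.3% of the list. An SIE with up to 1 mismatch was found for 6 of 10 (26.2 to 87.8%), the same 3 with Thbs2, Bach2 and Col12a1, against 66.6%. With up to 2 mismatches in an arm the count was 8 of 10 (44.4 to 97.5%) against 87.3%, and Angptl4 and Dkk3 remained without a match. An AP-1 site was found for 2 of 10 (2.52 to 55.6%), Angptl4 and Col12a1, against 23.2%, and an HRE for 2 of 10, Spaca6 and Col12a1, against 25.8%. All of these intervals contain the value of the list. They are 95% intervals and cover counting error only.

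**Figure D4:**
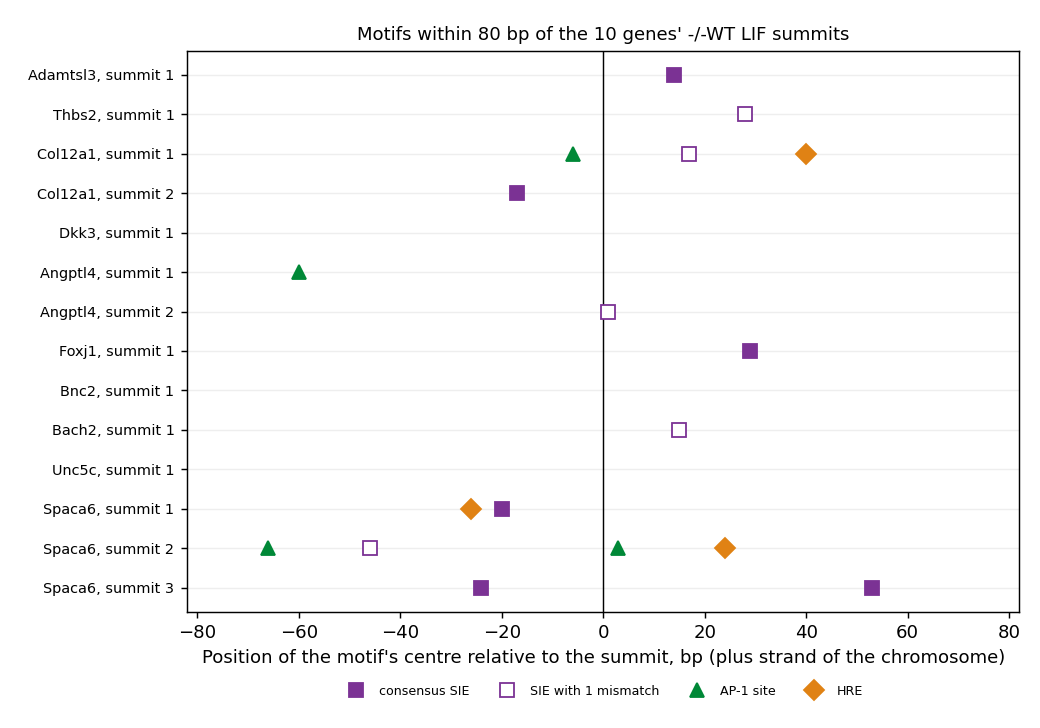
Position in bp of each motif's centre relative to the summit, for the 14 -/-WT LIF summits within 50 kb of the 10 genes. Filled squares are consensus SIEs, open squares SIEs with 1 mismatch, triangles AP-1 sites and diamonds HREs. The rows of Dkk3, Bnc2 and Unc5c are empty, and the SIE matches of the nearest summits are all 14 to 29 bp from the summit.

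Where an SIE match of up to 1 mismatch was present, it was close to the summit: all 6 nearest summits with a match had it centred within 30 bp, from 14 to 29 bp. Over the 725 summits of the list with such a match, the median distance was 20.0 bp and the quartiles 10.0 and 35.0 bp. Counting all 14 summits near the 10 genes, 5 held a consensus SIE, 10 an SIE with up to 1 mismatch and 3 an AP-1 site. Most consensus SIEs around these genes had no summit. Of 61 consensus SIEs within 50 kb of the start sites, 6 had a -/-WT LIF summit within 80 bp: 3 of 6 near Spaca6, 1 of 11 near Adamtsl3, 1 of 5 near Col12a1, 1 of 4 near Foxj1, and none of 10 near Bach2, 8 near Unc5c, 7 near Bnc2, 4 near Angptl4, 3 near Thbs2 and 3 near Dkk3. Around all annotated genes the share was 0.293% (162 of 55368), and these shares are not comparable, because the 10 genes were chosen for having a summit. The density of consensus SIEs was 3.18 per 100 kb around the 10 genes and 2.67 per 100 kb around all genes. The first value includes the 6 SIEs at summits, which the choice of the genes brought in. The densities are therefore not independent of the rule either, and nothing is read from their difference.

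The windows resembled other LIF summits in base composition. The GC content of the 10 had a median of 53.5% (32.9 to 76.4%), against 50.9% over the list with quartiles of 43.5 and 58.4%. The observed over expected frequency of CpG had a median of 0.385 against 0.298. Of the 10 windows, 7 had no repeat-masked base, as did 569 of 1088 (52.3%) of the list, and the 3 with masked bases were Bnc2, Bach2 and Thbs2.

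Whether a summit counts as a promoter peak depended on the transcripts used. With all annotated transcripts, 6 of the 10 nearest summits fell in the promoter window of 5 kb upstream to 0.5 kb downstream of a start site (Adamtsl3, Thbs2, Angptl4, Foxj1, Bnc2 and Spaca6), beside 38.7% of the list in the window of any gene. Nearness was part of the rule and only the nearest summit of each gene is counted, so nothing is read from that contrast. The study itself reports a lower promoter share for its LIF peaks with the same window. With the basic set, 4 of 10 did so (Adamtsl3, Thbs2, Angptl4 and Foxj1). The whole list was not measured against the basic set, so the change between sets cannot be called particular to these genes. Only 4 of the 10 nearest start sites belonged to a basic transcript. Measured from the same summits to a basic start site, the median distance was 5.13 kb in place of 1.14 kb, and it was 65.528 kb for Bach2, 87.151 kb for Col12a1 and 151.053 kb for Bnc2. The 10 genes had a median span of 81.4 kb and 5 start sites, against 17.4 kb and 3 start sites for protein-coding genes. A longer gene with more start sites can have more sequence within reach of the rule. The part that this played in the choice of the genes was not tested.

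**Figure D5:**
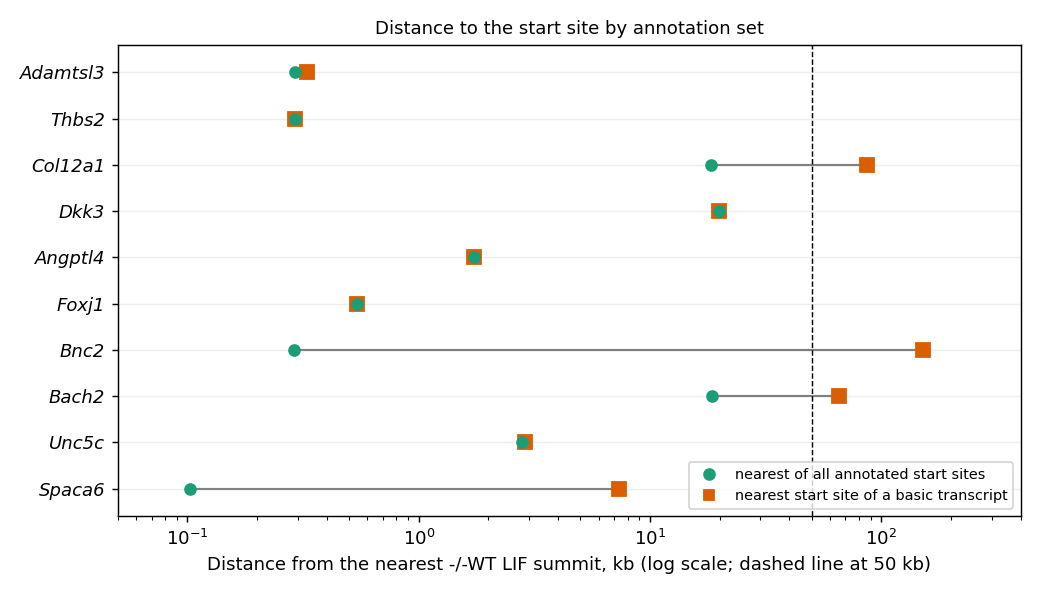
Distance in kb (log scale) from the nearest -/-WT LIF summit of each gene to the nearest of all annotated start sites (circles) and to the nearest start site of a basic transcript (squares), joined by a line, with a dashed line at 50 kb. The symbols nearly coincide for 6 genes and lie apart for Col12a1, Bnc2, Bach2 and Spaca6.

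The study kept in its table only genes that changed after peroxide in -/-WT MEFs and were dis-regulated in -/-C3S MEFs. Some departure in -/-C3S MEFs was therefore a condition for being listed and is not a result. By the pattern of change in -/-C3S MEFs that the table gives, the 8 genes lower after peroxide fall into 2 groups. Adamtsl3, Bnc2, Bach2, Col12a1 and Unc5c are listed as higher in -/-C3S than in -/-WT MEFs both under basal conditions and after peroxide. Dkk3, Spaca6 and Thbs2 are listed as higher in -/-C3S MEFs only after peroxide. Of the genes listed as higher after peroxide in -/-WT MEFs, Angptl4 is lower in -/-C3S MEFs under both conditions and Foxj1 only after peroxide. At the nearest summits, consensus SIEs occurred in Adamtsl3, Spaca6 and Foxj1, which carry 3 different patterns. Over all summits within 50 kb, Col12a1, with the pattern of Adamtsl3, had one as well. The 3 lowest-ranked summits belong to Thbs2, Bach2 and Dkk3 from both groups of lower genes. These are descriptions of 10 genes, with no test.

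In the wider table, 19 of 197 genes (9.64%) had a -/-WT LIF summit within 50 kb, and 7.38% of 21938 protein-coding genes did. The count was 10 of 85 genes listed as lower (11.8%) and 9 of 112 listed as higher (8.04%). Of the 187 table genes other than the 10, 9 had a -/-WT LIF summit within 50 kb and none of another list, the pattern of the 10 genes over the 5 lists. The closest of these were 1810019D21Rik at 1.259 kb, Dysf, which encodes the membrane repair protein dysferlin, at 1.901 kb, Ccdc88b at 8.069 kb, the zinc transporter gene Slc39a4 at 8.623 kb and the Snail family gene Snai3 at 16.184 kb. The furthest inside the 50 kb limit among table genes was Evpl at 39.0 kb, and the first outside it was Ly6a at 52.0 kb. In each of the other 4 lists 1 of the 197 genes (0.508%) had a summit within 50 kb.

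Relatives of the 10 genes, taken by family or, for Spaca6, by a shared name, were examined in the same way. Of 37 relatives in the annotation, 4 (10.8%, interval 3.03 to 25.4%) had a -/-WT LIF summit within 50 kb, against 5.54% of all annotated and 7.38% of protein-coding genes. Comp, a thrombospondin of cartilage, had the highest-scoring of them, 2.831 kb upstream with a score of 34.4 and rank 50. Adamtsl4, a relative of Adamtsl3, had a summit with a consensus SIE at a distance of 2.748 kb, ranked 132 with a score of 22.6. The summits near Col9a2 (27.984 kb, rank 824) and Thbs3 (37.865 kb, rank 719) were nearer to Smap2 and Scamp3. No summit lay within 50 kb of the relatives examined from the angiopoietin-like, Dickkopf, Foxj, basonuclin, Bach and Unc5 families. The same held for the other Spaca genes examined.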

How the data were processed

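The authors pooled both ChIP replicates of a condition before calling peaks, which left 1 deposited list of summits for each condition. The submitters' processing notes name HISAT2, Picard and MACS2, without versions, and the build mm10, and the study retained peaks with a read depth above IgG controls. The deposited lists also hold a score for each summit. Its unit is not given in the sources used here, and it was used only to rank summits. Depth is unknown from the lists.

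Summits were matched to GENCODE M21 start sites on GRCm38 (RefSeq sequence, patch release 6). Distances run from the summit to any annotated start site within 50 kb. Of 199 table genes, 187 matched by name, 10 by a RefSeq synonym and 2 not. Both strands were searched for motifs, 80 bp to each side of a summit. The distance and motif searches were tested on simulated data, in which 100 of 100 planted summits and 200 of 200 planted sites of each motif were found. The planted SIEs were exact, the HREs were on the minus strand, and the surrounding sequence held only A and T. The searches that allow mismatches were not tested in this way. Shares carry 95% Clopper-Pearson intervals, and a count of 0 allows up to 3 counts.

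The 10 genes, the lists of relatives and of known LIF targets, and all searches were chosen with earlier results of these data known. Genes named are the 10, any gene nearer to the same summit, relatives with a -/-WT LIF summit within 50 kb, the known LIF targets, and up to 5 table genes with the same pattern over the lists, in order of distance. Other genes named were chosen after their values were seen. Alternatives were other distances and windows, basic transcripts, the higher-scoring 50% of each list and more mismatches. Python 3.11.15, NumPy 2.4.6, SciPy 1.17.1, pysam 0.24.0, samtools 1.23.1 and matplotlib 3.10.9 were used.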

Additional observations from a re-analysis of the deposited data

How the results depend on the processing

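No paired analysis was possible because both replicates of a condition were pooled into 1 list, and for the same reason no replicate could be left out. All alternatives were fixed with earlier results known. Of 50 alternatives to 15 values, 39 stayed within 1.5 times of the value given and 11 moved further. In the higher-scoring 50% of the list, 4 of the 10 genes kept a -/-WT LIF summit within 50 kb, as did 9 of the table genes and 2 of the relatives. This limit splits tied scores, and Unc5c is among those tied. Within 10 kb, 11 table genes and 2 relatives had one, and within 100 kb 31 table genes. The median distance of the 10 genes became 4.93 kb when the nearest summit was sought from basic start sites, which leaves 8 of the 10 within 50 kb, and 2.27 kb over all 14 summits. AP-1 sites within 50 bp were found for 1 gene. Of SIEs with up to 1 mismatch within 50 kb, 11 had a summit (of 1123), and of consensus SIEs within 10 kb of a start site 3 (of 14). The counts of 0 in the other 4 lists were 0 under every alternative tried, but this was settled beforehand. A shorter distance, basic transcripts or the higher-scoring 50% can only lower a count. At 100 kb none could be added, as no summit of these lists was closer than 563.6 kb. These settings are among the 39 that stayed and say nothing about stability. Why values moved was not tested beyond what each setting itself removes or adds.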

Other observations

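The Spaca6 gene also holds microRNA genes of the Mir99b cluster, chosen here after their values were seen. The first Spaca6 summit was 7.57 kb from Mir125a, 8.03 kb from Mirlet7e and 8.2 kb from Mir99b.

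The table holds an 11th gene that was nearest to a -/-WT LIF summit but is not among the 10, 1810019D21Rik. It is listed as higher after peroxide, and its summit, in an exon of a non-coding transcript, ranked 195 with a score of 18.3, above the summits of all 10 genes.

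In some cases the summits nearest to a gene were at nearly the same place in several of the 4 other lists. Those of 3 lists lay within 200 bp of each other for 1 gene (Col12a1), those of 2 lists for 5 genes (Adamtsl3, Angptl4, Foxj1, Spaca6 and Thbs2) and those of no pair of lists for the other 4 genes. Spaca6 and Thbs2, both on chromosome 17, share these summits, whereas those nearest to Angptl4 on the same chromosome are others. All of these summits are far from the genes. For Col12a1 those of the -/-WT basal, -/-WT peroxide and -/-C3S basal lists were at 80664245, 80664255 and 80664225 of chromosome 9, each 945.4 kb away. That of the -/-C3S peroxide list was elsewhere, at 81257764, 1538.9 kb away. For Spaca6 the -/-WT and -/-C3S peroxide summits were at 17215386 and 17215355, both 611.8 kb away. The -/-WT and -/-C3S basal summits were at 20023467 and 20023479, both 2184.9 kb away.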
